A study of Homo sapiens with 9 samples.

Results

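The 44 genes described here are those of the integrated stress response, the unfolded protein response and protein folding in the endoplasmic reticulum (ER). They were chosen by name, with earlier results of these data known, and all 44 were among the 15436 genes of the deposited expression table. Of the 44, 42 were abundant enough to test, with a level of 1 or more CPM (counts-per-million) in 3 or more libraries, and 2 (CHAC1 and DNAJB9) were not. The RNA came from Raji, an established B-cell line grown from a human Burkitt lymphoma. Cells had received hydroxyurea (HU), thymidine with nocodazole (Thy-Noc) or the solvent DMSO, with 3 libraries in each group. HU blocks ribonucleotide reductase and so halts replication forks, thymidine in excess also stops DNA synthesis, and nocodazole disrupts microtubules and holds cells in mitosis. The sources used here give no doses, no times and no order of the thymidine and nocodazole additions, and all 3 groups are of this 1 cell line. The labels do not say that replicates were separate cultures, so the p-values speak only of the scatter among these libraries, part or all of which may be technical.

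The deposited values, read here as counts, summed to between 74940755 and 110485145 per library. The mitochondrial genome gave 1.45% to 1.82% of these in HU, 1.03% to 1.54% in Thy-Noc and 1.001% to 1.08% in DMSO libraries. All 7 B-cell markers were tested, with summed levels of 1064 to 1963 CPM in HU, 1376 to 2026 CPM in Thy-Noc and 1401 to 1919 CPM in DMSO. Of 5 T-cell, 4 monocyte and 5 epithelial or stromal markers, 1 was tested, the collagen gene COL1A1, at 8.09 to 13.7 CPM in HU, 1.97 to 5.19 CPM in Thy-Noc and 1.30 to 3.88 CPM in DMSO. The mitochondrial share and COL1A1 were thus higher in all HU libraries than in the others, except that the mitochondrial shares of HU and Thy-Noc overlapped, and their part in the results below was not tested.

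The integrated stress response starts from kinases that phosphorylate the translation initiation factor eIF2. Phosphorylated eIF2 lowers translation in general but lets a few mRNAs be translated, above all that of the transcription factor ATF4, which drives genes of amino acid supply and, under lasting stress, of cell death. PPP1R15A and PPP1R15B each bring the phosphatase PP1 to eIF2 and reverse the signal, and PPP1R15A is itself an induced gene. The unfolded protein response overlaps with it through the kinase PERK (EIF2AK3), and adds the sensors IRE1 (ERN1) and ATF6. IRE1 splices XBP1 mRNA, and spliced XBP1 and cleaved ATF6 raise the ER chaperones, disulfide isomerases and degradation machinery. In the B lineage the same genes build the secretory capacity of antibody-producing plasma cells.

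With HU, 1 of these 42 genes rose and 3 fell relative to DMSO. PPP1R15A, the inducible eIF2 phosphatase subunit, rose 9.06-fold. SLC7A5, an importer of large neutral amino acids, TXNDC5, a disulfide isomerase of the ER, and MZB1, an ER cochaperone of antibody assembly in B cells, fell to levels 1.37 to 1.68 times lower. Of 9 fits that each left out 1 library, 8 kept the call of PPP1R15A. Of the same fits, 1 kept that of SLC7A5, 2 that of TXNDC5 and 0 that of MZB1. The classical ER chaperones and the ATF4 targets of amino acid synthesis held no gene called by edgeR. A second tool, DESeq2, called the chaperone partner DNAJB11 and the serine synthesis gene PSPH lower. At HSPA5, HSP90B1 and PHGDH the standard errors were 1.48, 1.79 and 3.20 on the log2 scale, so a change there could be missed. With Thy-Noc, no member was called against DMSO, where only 4 of all 11346 tested genes (0.0353%) were called.

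The HU count reads as follows against all genes tested. Calls are adjusted p-values under 0.05 from the quasi-likelihood test of edgeR, adjusted by Benjamini and Hochberg's method across 11346 genes. By this rule HU and DMSO differed at 4 of 42 members (9.52%), against 3.56% of all genes. The members were chosen with earlier results of these data known, so this share is not independent evidence. The 1 higher member stands beside 2.0% of all genes called higher, and the 3 lower members (7.14%) beside 1.56% called lower. An unadjusted p under 0.05 was reached by 11 members (26.2%), against 21.2% of all genes, with 3 of them higher and 8 lower, against 11.1% and 10.1%. Without any test, the 3 HU libraries lay wholly above the 3 DMSO libraries at 5 members and wholly below at 7, or 28.6% of the members together, against 15.5% and 15.3% of all genes, together 30.7%. The share of members with separate groups was thus close to the background. The median log2 fold change was -0.12 over the members, with 20 above and 22 below 0, and 0.02 over all genes tested. DESeq2 called 3 of the 42 members higher and 7 lower, beside 1079 and 1056 of all 11346 genes. With limma on log2(CPM + 0.5), 2 members were called higher and 3 lower, beside 314 and 248 of all genes. Fits that left out 1 library called 0 to 2 members higher and 0 to 2 lower, with the adjusted p-values given gene by gene below.

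Of the 2 subunits that direct PP1 to eIF2, PPP1R15A was called with HU and PPP1R15B was not. PPP1R15A (ENSG00000087074, chr19:48872392-48876057 on GRCh38, plus strand, as GENCODE release 29 gives this and the later gene positions) had 71.4, 60.9 and 43.4 CPM in HU libraries, 10.3, 7.64 and 5.45 CPM in Thy-Noc libraries, and 6.15, 6.76 and 6.47 CPM in DMSO libraries. Every HU library was thus more than 4 times any other library, and the Thy-Noc and DMSO libraries overlapped. The mean was 58.5 ± 14.2 CPM in HU, 7.81 ± 2.44 CPM in Thy-Noc and 6.46 ± 0.305 CPM in DMSO (SD, n = 3 each). The log2 fold change of HU against DMSO was 3.18 ± 0.30 (SE), with an edgeR adjusted p of 0.00884. The call held when 8 of the 9 libraries were left out in turn, and without DMSO replicate 3 the log2 fold change was 3.19 with an edgeR adjusted p of 0.0514. PPP1R15B, the constitutive counterpart, had 65.8, 64.7 and 65.1 CPM in HU, 48.6, 56.2 and 52.8 CPM in Thy-Noc, and 62.8, 53.9 and 59.0 CPM in DMSO. Its HU libraries lay above all others, but by 0.15 on the log2 scale against DMSO, which was not called. GENCODE release 29 lists 2 transcripts for PPP1R15A and 1 for PPP1R15B, and no other gene overlaps PPP1R15A. In RNA from whole cultures, a lower or higher level in every cell and a change in the share of cells that express a gene cannot be told apart, here and for the genes that follow.

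**Figure D1:**
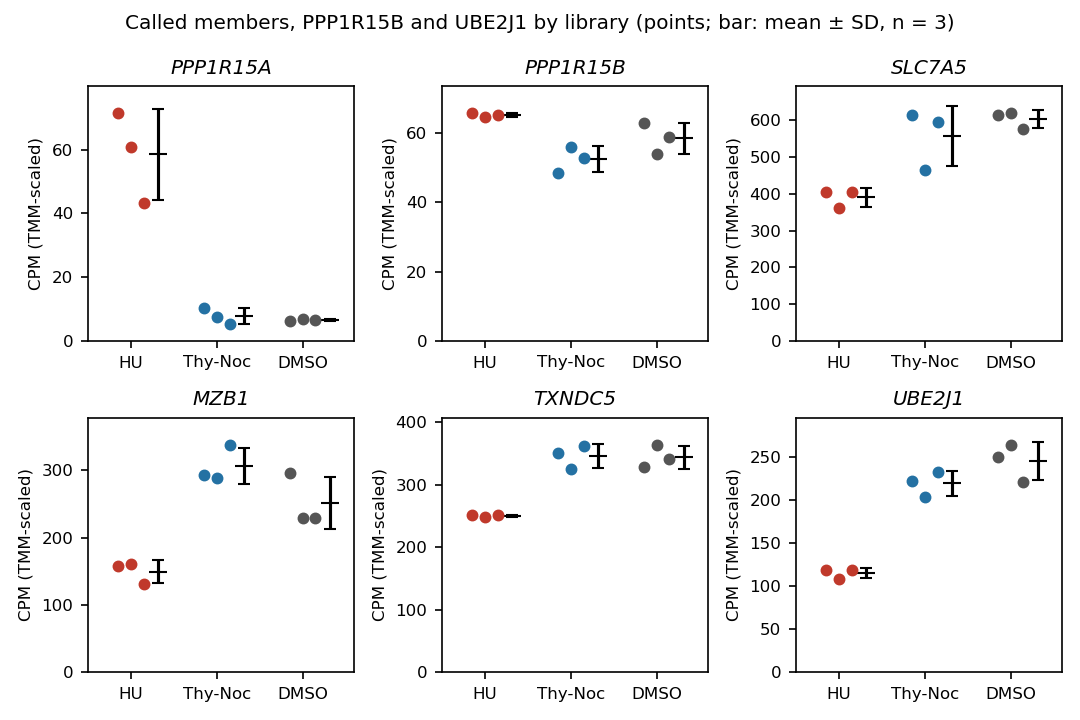
TMM-scaled CPM (y axes, each starting at 0) of the 4 called members, the constitutive subunit PPP1R15B and the ER degradation enzyme UBE2J1 in HU, Thy-Noc and DMSO libraries. Each point is 1 library and each bar is the mean ± SD of 3; the HU libraries of PPP1R15A sit between 43.4 and 71.4 CPM, above all others, and those of SLC7A5, MZB1, TXNDC5 and UBE2J1 sit below all others.

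The promoter of the 1 member that rose is shown because it was the only one of the 41 members with a promoter window to hold a full cAMP response element (CRE, TGACGTCA, a palindrome), an element bound by factors of the ATF and CREB family. The window is the 250 bases before the RefSeq start on GRCh38.p14, printed 5′ to 3′ on the gene's strand, with the element in capitals.
PPP1R15A (chr19:48872171-48872420, plus strand): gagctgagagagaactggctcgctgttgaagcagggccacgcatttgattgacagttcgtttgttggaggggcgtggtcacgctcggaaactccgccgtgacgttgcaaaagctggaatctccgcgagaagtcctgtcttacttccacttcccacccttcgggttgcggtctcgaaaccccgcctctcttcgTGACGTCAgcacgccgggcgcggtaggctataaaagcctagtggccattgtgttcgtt
The element began 58 bases before the annotated start. Among 35116 promoter windows of the same length, 1.65% held this sequence on either strand, beside 1 of the 59 windows of members. A match is thus not rare, and it does not show that a factor was bound.

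Of the 5 ATF4-axis transcription factors, edgeR called 0 with HU, DESeq2 and limma each called 1 (DDIT3), and the same 1 reached an unadjusted p under 0.05. ATF4, the central activator, had 11.98, 12.1 and 17.6 CPM in HU, 239, 11.1 and 13.2 CPM in Thy-Noc, and 16.3, 16.3 and 14.8 CPM in DMSO. Apart from 1 Thy-Noc library at 239 CPM, all libraries lay between 11.1 and 17.6 CPM. DDIT3, which encodes the death-linked factor CHOP, had 4.75, 3.89 and 9.65 CPM in HU, 0.533, 2.18 and 0.911 CPM in Thy-Noc, and 0.951, 0.00933 and 0.0127 CPM in DMSO. All 3 HU libraries lay above the other 6, and 2 DMSO libraries stood at a deposited value of 1, the lowest of all. Whether that value stands for 0 is not stated. The DDIT3 log2 fold change of HU against DMSO was 4.24 ± 1.63, with an edgeR adjusted p of 0.196. DESeq2 (adjusted p 0.0210) and limma with 0.5 CPM added (0.0321) did call DDIT3, as did edgeR without DMSO replicate 1, where the log2 fold change was 8.95 and the adjusted p 0.0423. Its size thus depends on how values near 0 are treated, and DDIT3 overlaps 4 other annotated genes, with the strand use of the counting not stated.

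The other factors showed no common direction. CEBPB, a partner of ATF4 and CHOP, had 4.96, 3.63 and 4.48 CPM in HU, 2.84, 2.30 and 4.21 CPM in Thy-Noc, and 3.77, 3.34 and 3.94 CPM in DMSO, with overlapping groups. CEBPG, another dimer partner of ATF4, had 59.1, 0.920 and 2.66 CPM in HU, but 44.2 to 54.4 CPM in Thy-Noc and 45.9 to 52.7 CPM in DMSO. The 2 low HU libraries of CEBPG are described with the other unsteady genes below. ATF5, a relative of ATF4 under the same translational control, had 0.0259 to 0.607 CPM in HU, 0.0137 to 3.86 CPM in Thy-Noc and 0.114 to 2.96 CPM in DMSO, too wide a spread in the last 2 groups to compare.

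Of the ATF4 effectors, DDIT4, an inhibitor of mTORC1, had 9.07, 134 and 8.66 CPM in HU, 0.191, 68.2 and 0.238 CPM in Thy-Noc, and 8.33, 1.85 and 6.36 CPM in DMSO. Its HU libraries lay above its DMSO libraries, 2 of them by little, and its log2 fold change of 3.20 was not called. TRIB3, a pseudokinase that dampens ATF4 and CHOP, had 44.9, 36.0 and 0.153 CPM in HU, 26.2 to 28.9 CPM in Thy-Noc and 27.1 to 30.8 CPM in DMSO. CHAC1, a glutathione-degrading enzyme, was too low to test, at 0.191 to 0.816 CPM in HU, 0.663 to 16.9 CPM in Thy-Noc and 0.420 to 0.756 CPM in DMSO. TRIB3 thus held 1 HU library far below its group, DDIT4 held 1 HU and 1 Thy-Noc library far above theirs, and CHAC1 held 2 Thy-Noc libraries, at 14 and 16.9 CPM, above the rest.

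No gene of amino acid supply, a main branch of ATF4's targets, was called higher with HU. In serine and asparagine synthesis all 4 log2 fold changes of HU against DMSO were below 0, with a median of -0.39 against 0.02 over all genes. For 1 of the 4, PHGDH, the value was -0.47 ± 3.20 (SE), so its sign cannot be read, and it is described with the unsteady genes below. By edgeR 0 of the 4 were called, 1 of them (PSPH) reached an unadjusted p under 0.05, and DESeq2 called the same 1. PSPH, the last enzyme of serine synthesis, had 27.9, 23.1 and 20.9 CPM in HU, 30.0, 32.3 and 32.3 CPM in Thy-Noc, and 31.5, 43.8 and 35.8 CPM in DMSO. All HU libraries of PSPH lay below all others, by 0.63 ± 0.17 on the log2 scale against DMSO, with an edgeR adjusted p of 0.0938. ASNS, asparagine synthetase, had 325, 286 and 179 CPM in HU, 485, 394 and 311 CPM in Thy-Noc, and 389, 305 and 287 CPM in DMSO. PSAT1, the middle enzyme of serine synthesis, had 111, 79.2 and 94.7 CPM in HU, 96.5 to 109 CPM in Thy-Noc and 105 to 123 CPM in DMSO. The HU and DMSO libraries of both genes overlapped, and GENCODE lists 4 pseudogene copies of each.

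Among the amino acid transporters, SLC7A5 (ENSG00000103257, chr16:87830023-87869488, minus strand), the transport subunit of the leucine importer LAT1, fell with HU. It had 405, 361 and 406 CPM in HU, 615, 465 and 594 CPM in Thy-Noc, and 615, 619 and 576 CPM in DMSO. Each HU library lay below each library of the other groups. The mean was 390 ± 25.7 CPM in HU, 558 ± 81.3 CPM in Thy-Noc and 603 ± 23.6 CPM in DMSO (SD, n = 3 each). The log2 fold change of HU against DMSO was -0.63 ± 0.12, a level 1.55 times lower, with an edgeR adjusted p of 0.0419. SLC7A5 has 2 pseudogene copies and an antisense gene, so its value is uncertain. Of the 9 fits that left out 1 library, only that without Thy-Noc replicate 2 kept the call, and the other 8 gave adjusted p values of 0.0502 to 0.139. SLC3A2, the heavy chain that carries SLC7A5 to the membrane, had overlapping groups, at 29.6, 39.2 and 35.9 CPM in HU, 72.7, 34.9 and 188 CPM in Thy-Noc, and 19.9, 37.4 and 33.5 CPM in DMSO. SLC7A11, the cystine importer, had 35.6, 16.1 and 23.5 CPM in HU, 20.6, 18.3 and 18.4 CPM in Thy-Noc, and 23.5, 17.4 and 18.9 CPM in DMSO, with overlapping groups.

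The ER stress sensors and XBP1 gave 0 calls among 4 genes by edgeR, DESeq2 and limma, and 0 reached an unadjusted p under 0.05 in HU against DMSO. EIF2AK3 (PERK), the sensor that phosphorylates eIF2, was the steadiest of them, at 244, 242 and 276 CPM in HU, 225, 204 and 249 CPM in Thy-Noc, and 246, 231 and 241 CPM in DMSO. ERN1 (IRE1) had 0.911, 8.07 and 11.5 CPM in HU, 14.8, 6.67 and 6.71 CPM in Thy-Noc, and 4.03, 4.30 and 1.14 CPM in DMSO. The Thy-Noc libraries of ERN1 lay above its DMSO libraries, while HU overlapped both. ATF6 had 59.2, 17.7 and 35.7 CPM in HU, 14.2, 34.3 and 12.2 CPM in Thy-Noc, and 20.7, 13.95 and 3.10 CPM in DMSO. XBP1, counted without regard to splicing by IRE1, had 109, 118 and 88.4 CPM in HU, 73.8, 19.4 and 97.5 CPM in Thy-Noc, and 112, 45.6 and 97.2 CPM in DMSO. The groups of ATF6 and XBP1 overlapped. All 4 log2 fold changes of HU against DMSO were above 0, with a median of 0.71, from 0.09 at EIF2AK3 to 1.58 at ATF6.

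The ER Hsp70 and Hsp90 system showed no common direction with HU, with 4 of 8 log2 fold changes above 0, a median of -0.09 and 0 calls by edgeR. Of the 8, 2 (DNAJB11 and SDF2L1) reached an unadjusted p under 0.05, DESeq2 called DNAJB11 and limma called 0. HSPA5 (BiP), the main ER Hsp70 and the usual readout of ER stress, had 4151, 144 and 253 CPM in HU, 4789, 225 and 989 CPM in Thy-Noc, and 998, 363 and 358 CPM in DMSO. Replicate 1 was the highest library of HSPA5 in each group, and no group stood apart. HSP90B1 (GRP94), the ER Hsp90, had 12.7, 3.58 and 36.1 CPM in HU, 1.79, 4.45 and 115 CPM in Thy-Noc, and 17.8, 1.16 and 1.11 CPM in DMSO. HYOU1, a large Hsp70 relative that exchanges the nucleotide of BiP, had 519, 474 and 243 CPM in HU, 732, 565 and 546 CPM in Thy-Noc, and 587, 312 and 320 CPM in DMSO, so that HU lay below Thy-Noc but overlapped DMSO.

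The cochaperones and small factors of the system were not called by edgeR either. SDF2L1, a partner of DNAJB11 in the BiP cycle, had 30.4, 23.2 and 28.2 CPM in HU, 28.4, 34.1 and 44.8 CPM in Thy-Noc, and 38.7, 36.6 and 37.2 CPM in DMSO. Its HU libraries lay below its DMSO libraries, by 0.46 ± 0.19 on the log2 scale, with an edgeR adjusted p of 0.223. DNAJB11, which delivers substrates to BiP, had 22.6, 16.7 and 15.6 CPM in HU, 224, 91.1 and 23.5 CPM in Thy-Noc, and 107, 258 and 17.7 CPM in DMSO, low in HU and of very wide spread in both other groups. MANF, a secreted factor that stabilises BiP complexes, had 164, 89.2 and 93.6 CPM in HU, 122, 198 and 229 CPM in Thy-Noc, and 139, 218 and 196 CPM in DMSO. DNAJC3, an inhibitor of eIF2 kinases and a BiP cochaperone, had 37.0 to 52.2 CPM in HU, 35.0 to 40.7 CPM in Thy-Noc and 35.0 to 42.0 CPM in DMSO. CRELD2, an ER-stress-inducible secreted protein, had 59.3 to 90.4 CPM in HU, 71.6 to 85.9 CPM in Thy-Noc and 80.3 to 97.4 CPM in DMSO. The groups of MANF, DNAJC3 and CRELD2 overlapped, and DNAJB9, a BiP cochaperone that restrains IRE1, stayed at 0.0380 to 0.299 CPM in all 9 libraries and was not tested.

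Among the disulfide isomerases and lectin chaperones, 6 of 7 log2 fold changes of HU against DMSO were below 0, with a median of -0.30, and 1 was called. TXNDC5 (ENSG00000239264, chr6:7881517-7910814, minus strand), abundant in plasma cells and other secretory cells, fell with HU. It had 251, 249 and 252 CPM in HU, 350.3, 325 and 362 CPM in Thy-Noc, and 328, 364 and 341 CPM in DMSO. The HU libraries lay within 4 CPM of each other and below all others. The mean was 251 ± 1.58 CPM in HU, 346 ± 18.99 CPM in Thy-Noc and 344 ± 18.3 CPM in DMSO (SD, n = 3 each). The log2 fold change of HU against DMSO was -0.46 ± 0.08, a level 1.37 times lower, with an edgeR adjusted p of 0.0290. A readthrough gene, BLOC1S5-TXNDC5, overlaps it, so its value is uncertain. The call held without Thy-Noc replicate 1 or 2 but ended in the other 7 fits that left out 1 library, with adjusted p values of 0.0513 to 0.107.

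PDIA6, a disulfide isomerase that also dampens IRE1 and PERK, had 1655, 1302 and 1374 CPM in HU, 1829.9, 1904 and 1940.1 CPM in Thy-Noc, and 1776, 2034 and 1786 CPM in DMSO. Each HU library of PDIA6 lay below each other library, by 0.37 ± 0.11 on the log2 scale against DMSO, with an edgeR adjusted p of 0.120 and a DESeq2 adjusted p of 0.0119. PDIA4, an isomerase that works on disulfides of secreted proteins, had 219, 132 and 183 CPM in HU, 189, 137 and 220.3 CPM in Thy-Noc, and 227, 228 and 202 CPM in DMSO. PDIA3 (ERp57), the isomerase that works with the lectins, had 10.3 to 17.2 CPM in HU, 9.60 to 14.9 CPM in Thy-Noc and 11.8 to 16.3 CPM in DMSO. CALR, a soluble lectin chaperone that binds sugars of nascent glycoproteins, had 61.7, 9.17 and 25.6 CPM in HU, 36.8, 36.5 and 28.95 CPM in Thy-Noc, and 40.7, 49.0 and 35.4 CPM in DMSO. Its membrane-bound relative CANX had 5.47 to 17.6 CPM in HU, 12.2 to 42.0 CPM in Thy-Noc and 4.11 to 18.7 CPM in DMSO. The HU and DMSO groups of PDIA4, PDIA3, CALR and CANX overlapped.

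In ER-associated degradation, 0 of 4 members were called in HU against DMSO by edgeR and limma, 1 (SYVN1) reached an unadjusted p under 0.05, and DESeq2 called the same 1. SYVN1 (HRD1), the ubiquitin ligase of the pathway, had 94.6, 186 and 96.5 CPM in HU, 71.1, 56.8 and 98.1 CPM in Thy-Noc, and 51.8, 56.5 and 71.1 CPM in DMSO. All HU libraries of SYVN1 lay above all DMSO libraries, by 1.07 ± 0.33 on the log2 scale, with an edgeR adjusted p of 0.122 and a DESeq2 adjusted p of 0.0210. SEL1L, its scaffold, had 46.1, 38.4 and 40.9 CPM in HU, 42.7, 34.9 and 36.6 CPM in Thy-Noc, and 39.8, 39.5 and 36.0 CPM in DMSO, with overlapping groups. HERPUD1, a stress-induced organiser of the ligase complex, had 166, 173 and 40.0 CPM in HU, 37.4, 57.3 and 166 CPM in Thy-Noc, and 60.8, 59.5 and 173 CPM in DMSO. HERPUD1 thus stood between 166 and 173 CPM in 4 libraries and between 37.4 and 60.8 CPM in the other 5, with both levels in every group.

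MZB1 (ENSG00000170476, chr5:139387480-139390081, minus strand) is a B-lineage ER protein that works with GRP94 and helps immunoglobulin M assemble. It had 158, 160.4 and 131 CPM in HU, 294, 289 and 338 CPM in Thy-Noc, and 297, 229.9 and 229.6 CPM in DMSO. Each HU library lay well below every other library. The mean was 149.8 ± 16.6 CPM in HU, 307 ± 27.2 CPM in Thy-Noc and 252 ± 38.7 CPM in DMSO (SD, n = 3 each). The log2 fold change of HU against DMSO was -0.75 ± 0.14, a level 1.68 times lower, with an edgeR adjusted p of 0.0412. No other annotated gene overlaps MZB1. The adjusted p lay just past the threshold, and all 9 fits that left out 1 library ended the call, at 0.0606 to 0.119, with log2 fold changes that stayed below 0. SEC11C, a catalytic subunit of the signal peptidase, had 8.04, 14.4 and 16.0 CPM in HU, 24.4, 12.5 and 14.03 CPM in Thy-Noc, and 31.9, 30.8 and 21.3 CPM in DMSO. Its HU libraries lay below its DMSO libraries, by 1.13 ± 0.36 on the log2 scale, with an edgeR adjusted p of 0.137 and a DESeq2 adjusted p of 0.0207.

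The promoter window of MZB1, a member that fell in both HU comparisons and has no overlapping gene, is printed for the element it shares with SLC7A5. Both hold an E-box (CACGTG, a palindrome), the element of the MYC, MAX and USF factors, here in capitals, 5′ to 3′ on the gene's strand, from RefSeq on GRCh38.p14.
MZB1 (chr5:139389914-139390163, minus strand): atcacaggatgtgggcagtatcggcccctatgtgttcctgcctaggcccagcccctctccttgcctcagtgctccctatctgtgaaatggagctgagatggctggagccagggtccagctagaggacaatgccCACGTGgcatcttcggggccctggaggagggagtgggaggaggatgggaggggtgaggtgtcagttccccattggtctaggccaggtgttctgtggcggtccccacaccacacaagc
By the GENCODE position given above, the E-box of MZB1 lies inside the gene, after its annotated start. The site of SLC7A5 is given with 10 bases on each side.
SLC7A5 (chr16:87869622-87869647, minus strand): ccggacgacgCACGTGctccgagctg
An E-box stood in 6.34% of all 35116 windows and in 8 of the 59 windows of members. It was held by 7 of the 41 members with a window, the other 5 being ATF4, DNAJB9, HERPUD1, HSP90B1 and SEC11C. Of the 6 tested members with an E-box, 2 (MZB1 and SLC7A5) fell with HU, beside 1.56% of all genes called lower. Over the 6 the median log2 fold change of HU against DMSO was -0.41, from -1.13 at SEC11C to 1.39 at HSP90B1. The E-box was picked because these 2 called members share it, so neither the count nor the median is independent evidence. Whether the E-box has a part in the fall was not tested.

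**Figure D2:**
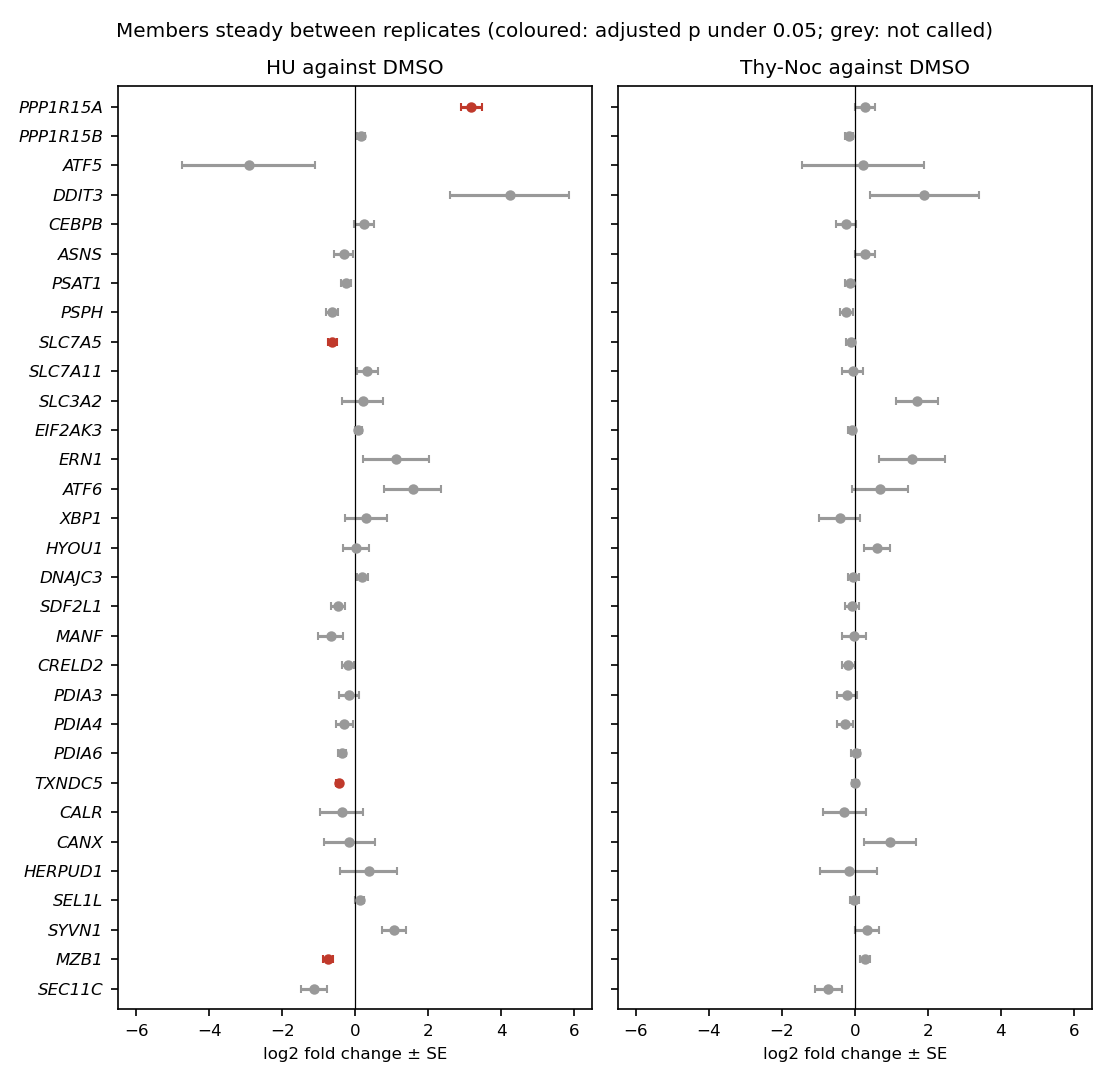
Log2 fold change ± SE (x axes) of the 31 members that were steady between replicates, for HU against DMSO (left) and Thy-Noc against DMSO (right); coloured points had an edgeR adjusted p under 0.05 and grey points did not. PPP1R15A stands at 3.18 and SLC7A5, TXNDC5 and MZB1 between -0.75 and -0.46 with HU, and no point is coloured with Thy-Noc.

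Several members took very different values in libraries of the same group. How the deposited values were counted is not stated, so for these genes a value may not hold the whole expression of the gene. A gene was called unsteady when 2 libraries of 1 group lay 10-fold or more apart once 0.5 CPM had been added to each. This held for 11 of the 42 tested members (26.2%) and for 1838 of all 11346 tested genes (16.2%). Without the added 0.5 CPM, the low-level genes ATF5, DDIT3 and ERN1 also differed more than 10-fold within a group. They are counted as steady here. PHGDH, the first enzyme of serine synthesis, had 1.81, 1.54 and 1065 CPM in HU, 17.4, 1.97 and 1356 CPM in Thy-Noc, and 1475, 3.51 and 1.81 CPM in DMSO. It thus had 1 library between 1065 and 1475 CPM in each group and stood under 18 CPM in the other 6. SEC61B, a subunit of the translocon through which proteins enter the ER, had 1.06, 117 and 1.20 CPM in HU, 0.478, 119.8 and 0.124 CPM in Thy-Noc, and 0.203, 111 and 0.661 CPM in DMSO. Its high library was replicate 2 in each group. EDEM1, which passes misfolded glycoproteins to degradation, had 69.6, 0.0259 and 0.00953 CPM in HU, 50.6, 69.8 and 0.124 CPM in Thy-Noc, and 63.0, 0.0933 and 61.8 CPM in DMSO. P4HB, a main protein disulfide isomerase, had 32.3, 21.4 and 70.3 CPM in HU, 81.1, 925 and 51.1 CPM in Thy-Noc, and 12.3, 23.1 and 22.6 CPM in DMSO. Both levels of EDEM1 occurred in every group, while P4HB had 1 library far above the rest. The other unsteady members were ATF4, CEBPG, DDIT4, TRIB3, HSPA5, HSP90B1 and DNAJB11. Among tested members with 1 annotated transcript 1 of 3 was unsteady (HSPA5), with 2 to 3 transcripts 4 of 12, with 4 to 10 transcripts 3 of 16, and with more than 10 transcripts 3 of 11. None of the 4 called members was unsteady, and over the 31 steady members the median log2 fold change of HU against DMSO was -0.16.

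**Figure D3:**
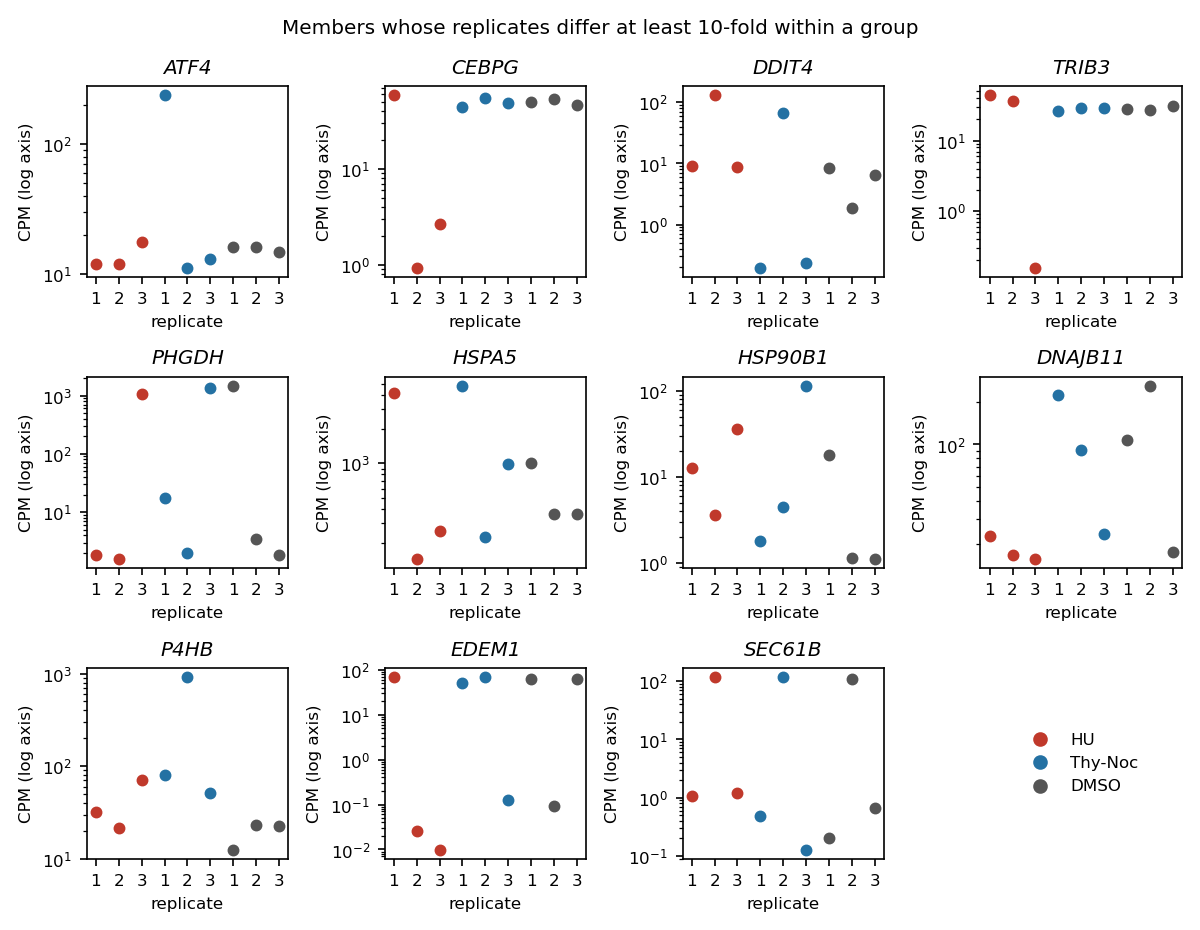
CPM on log axes of the 11 members whose libraries differed at least 10-fold within a group once 0.5 CPM had been added. Values are shown by replicate, without that addition, with HU, Thy-Noc and DMSO from left to right in each panel. PHGDH has 1 library between 1065 and 1475 CPM in each group, and SEC61B is above 100 CPM in replicate 2 of each group and under 2 CPM elsewhere.

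With Thy-Noc the median log2 fold change against DMSO was -0.01 over the members and 0.01 over all genes. No member was called against DMSO by edgeR, and 4 of all 11346 genes were (0.0353%), 0.0264% higher and 0.00881% lower, so this comparison made few calls anywhere. At an unadjusted p under 0.05 stood 2 members (4.76%), SLC3A2 and P4HB, both higher, against 4.49% of all genes, 2.45% higher and 2.04% lower. The Thy-Noc libraries lay wholly above the DMSO libraries at 2 members, ERN1 and P4HB, and wholly below at 0, against 5.18% and 4.79% of all genes, together 9.97%. DESeq2 called 1 member, P4HB, beside 102 genes higher and 77 lower of all tested. Limma called 0 members, beside 7 genes higher and 5 lower of all tested. P4HB differed by 4.19 ± 1.21 on the log2 scale and SLC3A2 by 1.70 ± 0.58, each with an edgeR adjusted p of 0.9998. P4HB had Thy-Noc replicate 2 at 925 CPM, beside 81.1 and 51.1 CPM in the other Thy-Noc libraries, and SLC3A2 had its replicate 2 within the DMSO range.

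The 4 members called with HU had small log2 fold changes in Thy-Noc against DMSO, of 0.27 ± 0.27 at PPP1R15A, -0.11 ± 0.12 at SLC7A5, 0.01 ± 0.08 at TXNDC5 and 0.28 ± 0.14 at MZB1.

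Set directly against Thy-Noc, PPP1R15A was higher and TXNDC5 and MZB1 were lower in HU. This comparison uses the same HU libraries as that with DMSO, so these 2 comparisons are not independent. By edgeR 3 of 42 members were called (7.14%), against 1.75% of all genes, the 1 higher member beside 0.696% called higher and the 2 lower members beside 1.06% called lower. The choice of members with earlier results known limits this share too. At an unadjusted p under 0.05 stood 9 members (21.4%), against 19.4% of all genes, 2 of them higher and 7 lower, against 10.1% and 9.34%. The groups were separate at 3 members with HU higher and at 7 with HU lower, against 12.9% and 12% of all genes, or 23.8% of the members against 24.9% of all genes together. PPP1R15A was 7.50-fold higher in HU than in Thy-Noc, a log2 difference of 2.91 ± 0.29 (edgeR adjusted p = 0.0131). Without HU replicate 1 its adjusted p was 0.0549, and without Thy-Noc replicate 3 it was 0.0511.

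MZB1 was 2.05 times lower in HU than in Thy-Noc, a log2 difference of -1.03 ± 0.14 (edgeR adjusted p = 0.0300). TXNDC5 differed by -0.47 ± 0.08, with an edgeR adjusted p of 0.0385. Leaving out any 1 library other than DMSO replicate 1 ended the MZB1 call, and leaving out any of the 9 ended that of TXNDC5, with adjusted p values of 0.0507 to 0.117 for MZB1 and 0.0641 to 0.130 for TXNDC5. SLC7A5 differed by -0.51 ± 0.12, with an edgeR adjusted p of 0.0815, and PPP1R15B by 0.31 ± 0.10, with an edgeR adjusted p of 0.163, so neither was called. The median log2 fold change of HU against Thy-Noc was -0.38 over the 42 members, with 14 above and 28 below 0, but -0.08 over the 31 steady ones and 0.01 over all genes. DESeq2 called 2 members higher and 6 lower, beside 900 and 926 of all 11346 genes. With limma 1 member was called higher and 2 lower, beside 148 and 178 of all genes.

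A further 121 genes of the same pathways, in 9 lists that hold none of the 44, were tested alongside. With HU against DMSO edgeR called 2 higher and 1 lower, beside 2.0% and 1.56% of all genes, and 25 of the 121 reached an unadjusted p under 0.05, beside 21.2% of all genes. In the same comparison DESeq2 called 11 of the 121 higher and 11 lower, beside 1079 and 1056 of all 11346 genes. Limma called 2 higher and 2 lower, beside 314 and 248 of all genes. The median log2 fold change of the 121 genes was 0.03. UBE2J1, the ubiquitin-conjugating enzyme that sits in the ER membrane and serves degradation of misfolded proteins, fell with HU. It had 119, 109 and 119 CPM in HU, 223, 204 and 233 CPM in Thy-Noc, and 251, 264 and 221 CPM in DMSO. Its HU libraries lay far below all others, 2.12 times lower than DMSO in the fit, a log2 difference of -1.08 ± 0.10 (edgeR adjusted p = 0.00884), and every fit without 1 library kept this call. SIL1, a nucleotide exchange factor of BiP, had 40.1, 50.6 and 40.3 CPM in HU, 25.4, 27.98 and 30.8 CPM in Thy-Noc, and 27.9, 23.6 and 24.3 CPM in DMSO, a rise of 0.79 ± 0.15 on the log2 scale with an edgeR adjusted p of 0.0412. SESN2, an ATF4 and p53 target that restrains mTORC1, had 33.0, 27.0 and 24.8 CPM in HU, 20.1, 16.1 and 18.0 CPM in Thy-Noc, and 17.2, 15.1 and 17.0 CPM in DMSO, a rise of 0.78 ± 0.16 with an edgeR adjusted p of 0.0496. The HU libraries of SIL1 and SESN2 lay above all others, but no fit that left out 1 library kept either call, with adjusted p values of 0.0501 to 0.139 for SIL1 and 0.0593 to 0.157 for SESN2.

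The remaining lists held no edgeR call in HU against DMSO. Of all 11346 genes in this comparison, 21.2% reached an unadjusted p under 0.05, and DESeq2 called 1079 higher and 1056 lower. Of 12 genes of the eIF2 kinases, eIF2 and its exchange factor eIF2B, 2 reached an unadjusted p under 0.05, DESeq2 called 1 higher and 3 lower and limma 0, with a median log2 fold change of -0.04. Of 18 cytosolic aminoacyl-tRNA synthetases, another ATF4-driven group, 4 reached an unadjusted p under 0.05, DESeq2 called 1 higher and 3 lower and limma 0, with a median of 0.07. Of 21 genes of the translocon, signal peptidase and signal recognition particle 2 did, and DESeq2 called 2 higher and limma 0, with a median of -0.07. Of 12 oligosaccharyltransferase genes 1 did, and DESeq2 called 1 higher and limma 0, with a median of 0.03. Of 6 plasma cell and antibody genes 2 did, DESeq2 called 1 higher and 1 lower and limma 1 lower, with a median of -0.05. Of the 2 tested GADD45 genes, stress-induced growth arrest factors, 1 did, and DESeq2 called 1 higher and limma 0. Against these, the other ATF4 targets, other ER folding genes and other ER-associated degradation genes held the 3 calls above, out of 14, 21 and 15 genes, with medians of 0.02, 0.02 and 0.25.

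In Thy-Noc against DMSO, 0 of the 121 genes were called by edgeR, and 3 reached an unadjusted p under 0.05, beside 4.49% of all genes. DESeq2 called 2 of the 121 higher, beside 102 higher and 77 lower of all 11346 genes, and limma called 0. UBE2J1 also fell in HU against Thy-Noc. It differed by -0.93 ± 0.10 with an edgeR adjusted p of 0.0162, which was 0.0690 without HU replicate 1, 0.0587 without HU replicate 3 and 0.0635 without Thy-Noc replicate 3.

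The ER stress element (ERSE, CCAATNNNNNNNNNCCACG), through which ATF6 with the factor NF-Y turns on ER chaperones, was the rarest of the 5 motifs searched. It stood in 0.0740% of all 35116 promoter windows, searched on both strands, and in 8 of the 59 windows of members. These belong to 7 of the 41 members with a window. The sites are printed with 10 bases on each side, 5′ to 3′ on the strand of the match, with the 2 conserved blocks in capitals, from RefSeq on GRCh38.p14. Its CCACG block can overlap an E-box.
HSPA5 (chr9:125241381-125241419, minus strand): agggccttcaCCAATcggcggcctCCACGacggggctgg
HSP90B1 (chr12:103930206-103930244, plus strand): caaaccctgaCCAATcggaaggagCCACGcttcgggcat
HSP90B1 (chr12:103930311-103930349, minus strand): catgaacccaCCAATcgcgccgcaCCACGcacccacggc
CALR (chr19:12938374-12938412, minus strand): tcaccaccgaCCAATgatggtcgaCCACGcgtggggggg
CANX (chr5:179698768-179698806, plus strand): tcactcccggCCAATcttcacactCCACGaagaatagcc
CRELD2 (chr22:49918544-49918582, minus strand): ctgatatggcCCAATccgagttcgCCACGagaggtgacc
PDIA6 (chr2:10812843-10812881, minus strand): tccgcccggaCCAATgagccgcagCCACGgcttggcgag
XBP1 (chr22:28800593-28800631, minus strand): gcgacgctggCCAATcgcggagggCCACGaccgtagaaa
HSP90B1 holds 2 such sites. By their GENCODE positions, the sites of HSP90B1, CANX, CRELD2 and PDIA6 lie inside the genes. Of these 7 genes 0 were called by edgeR in any of the 3 comparisons. Their log2 fold changes of HU against DMSO ran from -0.38 at CALR to 1.40 at HSPA5, with a median of -0.16, and their medians were 0.02 in Thy-Noc against DMSO and -0.39 in HU against Thy-Noc. HSPA5 and HSP90B1, the 2 highest of them with HU, are unsteady.

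The C/EBP-ATF response element (CARE, TGATGNAA) is bound by ATF4 with a C/EBP partner. It stood in 3.14% of all windows and in 5 of the 59 windows of members, at 5 members. These sites are shown because they mark the ATF4 side of the response.
ASNS (chr7:97872459-97872486, minus strand): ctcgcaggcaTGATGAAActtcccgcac
CEBPG (chr19:33374061-33374088, plus strand): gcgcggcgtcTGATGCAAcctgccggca
CHAC1 (chr15:40953252-40953279, minus strand): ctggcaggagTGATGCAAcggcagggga
HERPUD1 (chr16:56931956-56931983, minus strand): gggcacgggcTGATGCAAcccgccgcgt
PPP1R15B (chr1:204412027-204412054, minus strand): ccgccccggcTGATGCAAcctcacgctg
Of these 5 genes 4 were tested and 0 were called by edgeR in any comparison, with a median log2 fold change of HU against DMSO of -0.08, from -1.24 at CEBPG to 0.37 at HERPUD1. The unfolded protein response element (UPRE, TGACGTGG) shares TGACGT with the CRE and is bound by spliced XBP1 and ATF6. It stood in 0.612% of all windows and in 2 of the 59 windows of members, at 2 members.
TXNDC5 (chr6:7910152-7910179, minus strand): cactggcggcTGACGTGGcgctcggcgg
HYOU1 (chr11:119057376-119057403, minus strand): gctggccccgTGACGTGGtccaatccca
TXNDC5 fell with HU, and HYOU1 was not called, at a log2 fold change of 0.02. TXNDC5 had a further window (chr6:7910789-7911038, minus strand) that held none of the motifs searched. By GENCODE positions, the UPRE of TXNDC5 and the CARE sites of ASNS, CEBPG and CHAC1 lie inside their genes. A match describes the letters of a window and does not show binding. No window was found for PSPH, SLC7A11 and PDIA3.

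**Figure D4:**
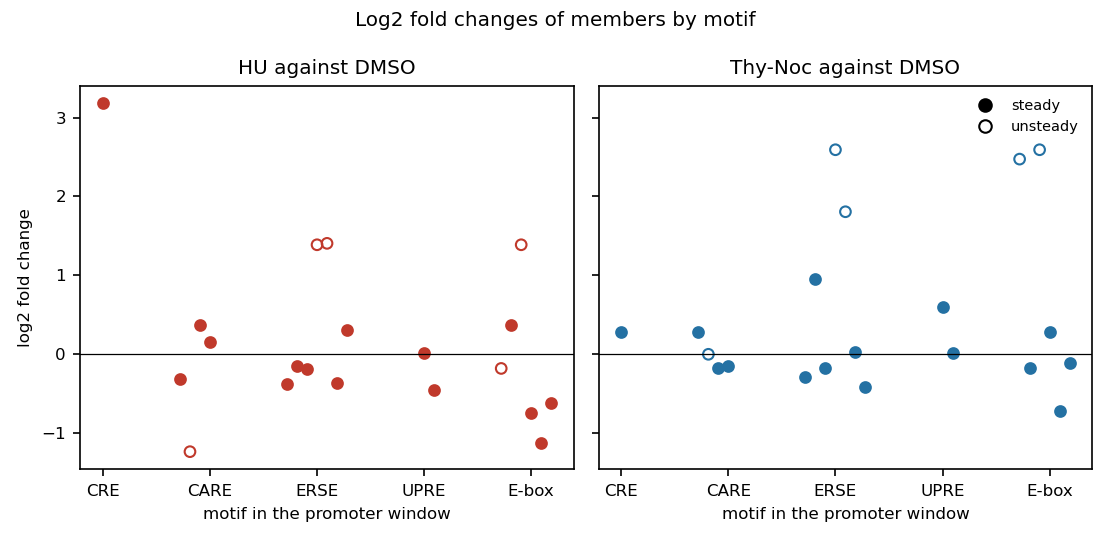
Log2 fold change (y axis) of each tested member that holds a given motif in its promoter window, for HU against DMSO (left) and Thy-Noc against DMSO (right); filled points are members steady between replicates and open points unsteady ones. The single CRE point is PPP1R15A at 3.18 with HU and 0.27 with Thy-Noc, and members with an ERSE spread from -0.38 to 1.40 with HU.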

How the data were processed

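The 9 Raji libraries were made with a stranded mRNA kit, per the labels. STAR, Trim Galore, FastQC and DESeq2 (no versions) and the build GRCh38 are listed in the submitters' processing notes. The deposited table is named for CPM, but its values are whole numbers, none under 1, with library totals of 74940755 to 110485145. What the authors deposited was therefore read, from the values alone, as estimated counts per gene that had not been scaled, and edgeR replaced the limma test planned for CPM. The sources used here do not name the counting tool, its annotation or its strand setting.

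Members were matched by gene identifier or symbol. The symbol of 1 (ERN1) had been altered by a spreadsheet and was matched by identifier. The 11346 genes that reached a CPM of 1 in 3 or more libraries were fitted in R 4.3.3 with edgeR 4.0.16, using TMM scaling, a quasi-likelihood model of the 3 groups over 9 libraries (6 residual degrees of freedom) and 2-sided tests, with Benjamini-Hochberg adjustment and a threshold of 0.05. CPM in the text uses TMM-scaled totals. Alternatives used DESeq2 1.42.0, limma 3.58.1, other filters, scalings and pseudocounts, and each library left out. Pairs of libraries within a group gave a chi-square of 691 to 911 per degree of freedom, so the counts of no library copy those of another. Genes that were unsteady add to this value, so it cannot tell whether libraries came from separate cultures.

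The members and the further lists were chosen with earlier results of these data known, so their direction is not independent evidence. All called members are given in every library, and from each further list up to 4 called genes per direction whose mean CPM reached 2, apart from 1 that is not reported here. GENCODE release 29 gave coordinates and transcript numbers. Promoter windows are the 250 bases before RefSeq starts, searched on both strands. A gene can have several such windows, and the 41 members with a window have 59. RefSeq starts can differ from GENCODE positions, so a window can lie partly or wholly inside its gene, as at MZB1, TXNDC5 and other genes named with their sites.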

Additional observations from a re-analysis of the deposited data

How the results depend on the processing

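Same-numbered libraries of different groups correlated at only -0.04 to 0.04 over 9 pairs in their deviations from group means. Such low values show no broad shift shared by replicate number. They cannot exclude pairs or batches, because 16.2% of the tested genes were unsteady within a group. With the replicate number as a block, HU against DMSO gave 7 genes higher and 2 lower, with 1 member higher and 0 lower, and both other comparisons gave 0 genes in either direction, so that PPP1R15A in HU against Thy-Noc was lost as well (adjusted p 0.0680). The call of UBE2J1, a gene of the further lists, was also lost under the block in HU against DMSO (adjusted p 0.0604) and in HU against Thy-Noc (0.0851). For HU against DMSO (227 genes higher, 177 lower), no filter gave 133 and 87, DESeq2 1079 and 1056, the 6 libraries compared alone 32 and 19, leaving out unsteady genes 416 and 305, and leaving out 1 library 12 to 190 and 9 to 128. Members called higher (1) came to 2 with quantile normalization and with limma at each pseudocount, 3 with DESeq2, and 0 to 2 without 1 library. Members called lower (3) came to 0 without a filter or with 6 libraries, 7 with DESeq2, and 0 to 2 without 1 library. For Thy-Noc against DMSO (3 higher, 1 lower), quantile normalization gave 6 and 5, DESeq2 102 and 77 (1 of them a member), limma 7 and 5 at pseudocounts of 0.5 and 1 CPM and 5 and 2 at 0.1 CPM, the 6 libraries 2 lower, and leaving out 1 library 3 to 8 and 1 to 6. For HU against Thy-Noc (79 higher, 120 lower), no filter gave 30 and 34, a CPM minimum of 5 gave 137 higher, DESeq2 900 and 926, limma 148, 138 and 165 higher at 0.5, 0.1 and 1 CPM with 181 lower at 1 CPM, the 6 libraries 6 and 12, leaving out unsteady genes 239 and 233, and leaving out 1 library 0 to 50 and 1 to 53. Members came to 2 higher and 6 lower with DESeq2, 1 lower without a filter, 0 and 0 with 6 libraries, and 0 to 1 in both directions without 1 library.

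Under these alternatives PPP1R15A kept its call in HU against DMSO in 11 of 11 settings other than leaving out a library, MZB1 and TXNDC5 in 8 and SLC7A5 in 7. The alternatives were run for the called genes and those at an unadjusted p under 0.05, and among these signs turned at values near 0 in Thy-Noc against DMSO. Over the fits without 1 library SLC7A5 ran from -0.19 to 0.0057, above 0 without Thy-Noc replicate 2, and TXNDC5 from -0.026 to 0.053, below 0 without Thy-Noc replicate 1 (-0.00044), Thy-Noc replicate 3 (-0.023) or DMSO replicate 1. TXNDC5 was at -0.016 with quantile normalization. The cause of these shifts was not tested. Fits without 1 library had 5 residual degrees of freedom.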
